A study of Mus musculus with 18 samples.

Results

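The genes described here encode regulators of pre-mRNA splicing and related RNA-binding proteins. They were chosen by symbol from a RefSeq table of the mouse build GRCm38.p6 (mm10): protein-coding genes starting with Hnrnp, Srsf, Celf, Khdrbs, Rbfox, Mbnl or Elavl, or with Rbm or Ptbp followed by a digit. This gave 92 of 21900 protein-coding genes. The measure is whether deposited ATAC-seq peaks lay within the gene span and 1 kb on either side, in sorted lung epithelial cells of mice given a G9a inhibitor or vehicle.

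Splicing regulators decide which exons a transcript keeps. SR proteins, encoded by the Srsf genes, mostly promote exon inclusion when bound to exonic enhancers, while hnRNP proteins and Ptbp proteins often repress it. Rbfox, Mbnl, Celf, Khdrbs and Elavl proteins bind short motifs in introns and untranslated regions and set tissue-specific patterns of splicing and mRNA stability. Many Rbm proteins carry an RNA recognition motif. G9a, encoded by Ehmt2, methylates lysine 9 of histone H3, a mark of repressed chromatin.

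ATAC-seq uses a transposase that inserts sequencing adapters into open DNA. All mice were of the strain given as c57/bl6 and 6 to 12 weeks old, with 3 mice per arm. Every population lacked CD31 and CD45 and carried Epcam and Sca-1, and 10000 cells went into each library. The sources used here give no name, dose or duration for the inhibitor. The groups with G9a inhibitor (G9ai) were CD24-negative (CD24neg), CD24low and CD24high cells, each with lists of replicates 2 and 3. The vehicle groups were CD24neg with replicate 3, CD24low with replicates 2 and 3, and CD24high with replicate 3. The other 8 of 18 samples were not analysed here.

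The lists behave as treatment-specific subsets of the called peaks: replicate lists overlapped almost fully and lists of opposite arms almost not at all. Lists held 2552 to 12985 peaks, and sequencing depth is unknown. Agreement between replicates is therefore a property of how the lists were made, and their spread understates the difference between mice. Only 86 merged peaks in CD24neg, 18 in CD24low and 105 in CD24high were listed in both arms. Absence from the lists does not mean closed chromatin, since peaks open in both arms may have been left out of them. For CD24neg and CD24high the vehicle side is 1 library, without replicates. A region is called G9ai-only where every G9ai library and no vehicle library of that population had a peak, and vehicle-only in the opposite case. Scores are the authors' peak scores on a scale that the sources do not state, and are read only as ranks within a list.

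The sequences around 4 start sites carry the promoter findings. Srsf4 and Celf2 are the members with a start site region of the same arm in all 3 populations, Hnrnpf has a start site listed in opposite arms of different populations, and Hnrnpr has the G9ai-only start site region with the highest mean score in CD24neg. Each line runs 5′ to 3′ on the gene's strand over the 250 bases before a RefSeq start site and the 50 from it on (GRCm38.p6). Capitals mark the bases covered by the largest number of lists. These are 4 of 4 vehicle lists for Srsf4 (chr4:131873810-131874109, plus strand) and 6 of 6 G9ai lists for Celf2 (chr2:6871986-6872285, minus strand). For Hnrnpf they are both CD24low G9ai lists and the CD24high vehicle list (chr6:117917044-117917343, plus strand), and for Hnrnpr both CD24neg G9ai lists (chr4:136311348-136311647, plus strand).
Srsf4: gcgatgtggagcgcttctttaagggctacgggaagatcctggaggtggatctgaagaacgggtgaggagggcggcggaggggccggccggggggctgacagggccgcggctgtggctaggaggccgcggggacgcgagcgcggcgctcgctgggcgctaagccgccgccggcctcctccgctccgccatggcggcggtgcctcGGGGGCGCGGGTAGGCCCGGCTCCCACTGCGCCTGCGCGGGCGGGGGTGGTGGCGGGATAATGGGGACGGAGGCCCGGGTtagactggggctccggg
Celf2: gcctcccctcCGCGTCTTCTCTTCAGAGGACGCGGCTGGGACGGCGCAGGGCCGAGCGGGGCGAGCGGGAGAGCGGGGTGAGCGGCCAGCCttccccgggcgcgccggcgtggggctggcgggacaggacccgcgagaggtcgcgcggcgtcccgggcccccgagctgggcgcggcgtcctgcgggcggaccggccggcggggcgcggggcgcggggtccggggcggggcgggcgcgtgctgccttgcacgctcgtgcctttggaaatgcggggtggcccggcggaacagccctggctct
Hnrnpf: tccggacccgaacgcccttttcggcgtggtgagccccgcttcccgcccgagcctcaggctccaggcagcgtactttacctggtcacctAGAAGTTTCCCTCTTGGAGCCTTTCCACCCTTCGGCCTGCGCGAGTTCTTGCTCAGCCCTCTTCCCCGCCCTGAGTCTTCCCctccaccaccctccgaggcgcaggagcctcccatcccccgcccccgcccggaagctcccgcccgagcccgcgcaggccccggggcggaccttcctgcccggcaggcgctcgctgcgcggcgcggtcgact
Hnrnpr: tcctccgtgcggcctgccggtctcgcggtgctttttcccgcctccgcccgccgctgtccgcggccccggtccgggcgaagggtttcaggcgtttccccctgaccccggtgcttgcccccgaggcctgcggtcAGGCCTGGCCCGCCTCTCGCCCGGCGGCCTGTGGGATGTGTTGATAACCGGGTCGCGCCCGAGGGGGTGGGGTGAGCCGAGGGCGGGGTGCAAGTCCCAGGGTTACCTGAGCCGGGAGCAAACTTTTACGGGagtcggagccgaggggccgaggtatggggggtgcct
The GC content of these windows was 75.3% for Srsf4, 80.3% for Celf2, 71.3% for Hnrnpf and 72.3% for Hnrnpr, against a median of 61.0% over the 119 start site windows of 77 members. The letters GGGCGG, the GC box, occurred on either strand in all 4 windows, inside the capitals in Srsf4, Hnrnpf and Hnrnpr and outside them in Celf2. CCAAT and TATAAA occurred in none of the 4. GGGCGG occurred in 58.8% of member windows and 46.2% of the 21263 windows of all protein-coding genes, CCAAT in 48.7% and 38.2%, and TATAAA in 13.4% and 12.6%. The median GC content of all windows was 56.3%, and the median observed-over-expected CpG ratio was 0.794 in member windows and 0.567 in all. A match describes these letters only.

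Of the 92 genes, 46 (50%) held an arm-only region in at least 1 population, against 43.7% of all protein-coding genes. Genes of the same 10 length classes would give 45.3, so the count lay close to what gene length gives. The other 46 had no listed peak in any library. Genes with a region had a median length of 34.0 kb and those without 14.4 kb. In the longest class 11 of 14 members (78.6%) held a region, against 79.1% of all genes of that class. Altogether 160 arm-only regions lay in member windows, 69 G9ai-only and 91 vehicle-only, and were 63 to 697 bp wide. Vehicle-only regions were the more numerous over all genes too, by the counts given below for each population. Of these 146 lay inside a gene, 7 across a gene end and 7 outside within 1 kb. A window of another gene also covered 14 of them. The region farthest outside a gene but counted was at Rbm46 (895 bp, CD24high, G9ai-only), and the nearest one not counted was at Rbm4 (1034 bp, CD24neg, G9ai-only).

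**Figure D1:**
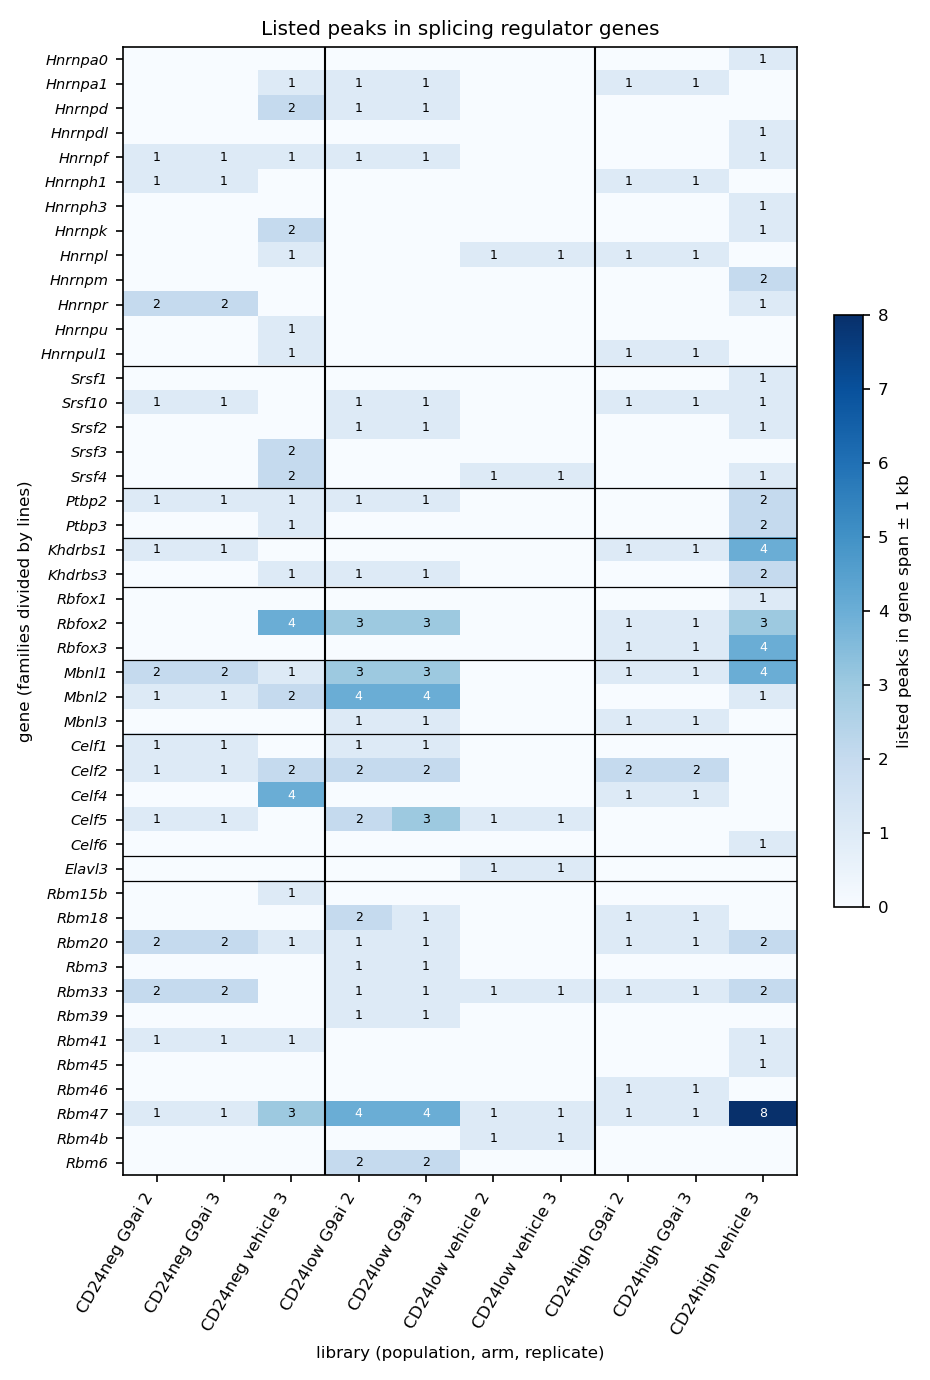
Listed peaks in the gene span ± 1 kb of the 46 splicing regulator genes with a peak (rows, families divided by lines) in each of the 10 libraries (columns; in each population G9ai stands left of vehicle). Numbers and shade give the peak count; Rbm47 in the CD24high vehicle library reaches 8, and the CD24low vehicle columns hold 7 peaks each.

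The arm with the longer list differed between populations, and so did the members' counts. In CD24low cells 21 members (22.8%) held a G9ai-only region and 7 (7.61%) a vehicle-only region, against 15.9% and 7.43% of all genes. In CD24neg cells 14 members (15.2%) held G9ai-only and 21 (22.8%) vehicle-only regions, against 10.6% and 18.8%. In CD24high cells 16 (17.4%) held G9ai-only and 26 (28.3%) vehicle-only regions, against 8.0% and 24.9%. Set against genes of the same length, the G9ai-only counts of 14, 21 and 16 compare with 11.4, 17.1 and 8.58 in CD24neg, CD24low and CD24high. The vehicle-only counts of 21, 7 and 26 compare with 20.1, 7.92 and 26.5. The vehicle-only counts thus lay near what gene length gives in every population, while the CD24high G9ai-only count lay farthest above it. The arm with the larger count changed with list length in CD24high. With lists cut to the 2552 highest-scoring peaks, CD24high had 16 G9ai-only and 8 vehicle-only members, CD24low 7 and 6, and CD24neg 6 and 8. Length then gives 7.44 and 7.66 in CD24high, 3.91 and 7.93 in CD24low and 5.52 and 7.37 in CD24neg. In CD24high this cut hardly shortened the G9ai lists (2798 and 2817 peaks) and mainly shortened the vehicle list (12985). The turn of the arms there thus came with the shorter vehicle list.

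**Figure D2:**
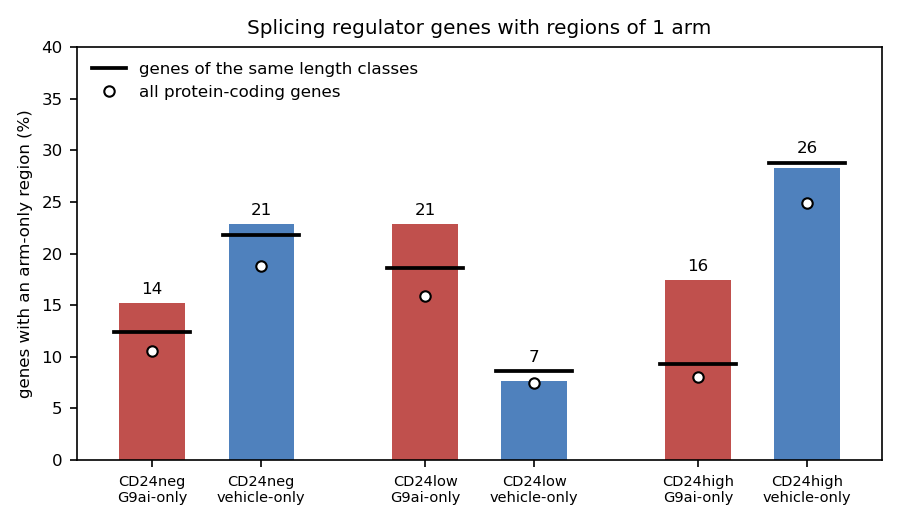
Share of splicing regulator genes with a G9ai-only or vehicle-only region in each population (bars; vertical axis in percent of 92 genes; gene counts above). Black lines give the share that genes of the same length classes would have, and open circles the share of all protein-coding genes. The CD24high G9ai-only bar (16 genes) stands above both marks, and the 3 vehicle-only bars lie near the black lines.

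Counted by genes with 1 arm alone, CD24neg had 7 members with G9ai-only regions alone (7.61%, against 5.9% of all genes), 14 with vehicle-only regions alone (15.2%, against 14.2%) and 7 with both (7.61%, against 4.68%). CD24low had 18 (19.6%, against 13.1%), 4 (4.35%, against 4.64%) and 3 (3.26%, against 2.79%) in the same order, and CD24high 9 (9.78%, against 3.87%), 19 (20.7%, against 20.8%) and 7 (7.61%, against 4.13%). The vehicle-only shares again sat near the background, and the CD24high G9ai-only share was over it by the largest ratio among these shares.

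The 16 genes of the CD24high G9ai-only set were Celf2, Celf4, Hnrnpa1, Hnrnph1, Hnrnpl, Hnrnpul1, Mbnl1, Mbnl3, Rbfox2, Rbfox3, Rbm18, Rbm20, Rbm33, Rbm46, Rbm47 and Srsf10. All held 1 such region except Celf2, which held 2. Regions of this set had a median percentile of 43.9 by score within their lists, so they were not drawn from the top of the lists. With the higher-scoring 50% of each list the count was 7 (2.93 from length), with equal list lengths 16 (7.44 from length) and with 1 kb around gene ends 6 (3.13 from length). Equal list lengths hardly shortened the CD24high G9ai lists (2798 and 2817 peaks cut to 2552). The unchanged 16 is therefore little of a check.

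The number of listed peaks in member windows, per megabase and divided by the same density over all gene windows of that library, sets the members against all genes of the same list. This relative density was 1.02 and 1.03 in the G9ai libraries of CD24neg, against 0.894 in its vehicle library. In CD24low it was 1.09 in both G9ai libraries, against 0.595 and 0.597 with vehicle. In CD24high it was 1.34 and 1.33 with G9ai, against 0.865 with vehicle. The G9ai libraries lay above the vehicle libraries in all 3 populations. Replicate lists overlap almost fully, and CD24neg and CD24high have 1 vehicle library each, so this does not show consistency between mice. The difference averaged 0.367 and was 0.132 in CD24neg, 0.495 in CD24low and 0.473 in CD24high. Counting only peaks within 1 kb of gene ends turned the direction in CD24low (-0.687), against 0.760 in CD24neg and 0.652 in CD24high. With equal list lengths the mean difference was 0.573, with 0.369 in CD24neg, 0.583 in CD24low and 0.766 in CD24high, so its size depends on how much of each list is used. The difference rests on few peaks, 19, 35 and 18 member peaks per G9ai library and 35, 7 and 50 per vehicle library of CD24neg, CD24low and CD24high. Unlike the gene counts, this density has no length control and pools families of unlike density. Rbfox windows make up 2185 kb of the 7.28 Mb and held 17 arm-only regions, while Hnrnp windows make up 392 kb and held 29. No p is given, since the genes were chosen with results of these data known. Peak names share 4 library name stems across the populations. If a stem marks a mouse, the populations do not count as separate evidence.

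**Figure D3:**
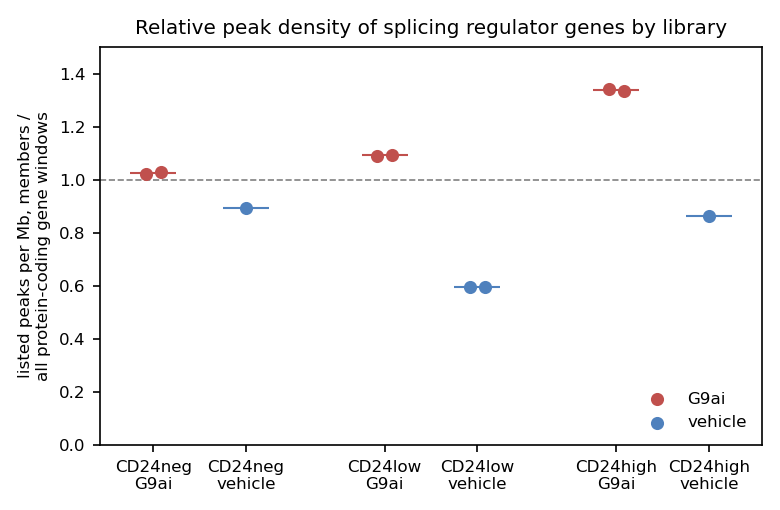
Density of listed peaks in splicing regulator gene windows divided by that in all protein-coding gene windows (vertical axis, no unit), by population and arm. Each point is a library and each short line the group mean; the dashed line marks equal density. G9ai points lie at 1.02 to 1.34 and vehicle points at 0.595 to 0.894.

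The share of member peaks near gene ends did not differ between the arms in one direction. Member peaks within 1 kb of a gene end numbered 6 of 19 in each CD24neg G9ai library and 6 of 35 with vehicle. In CD24low they were 6 of 35 in each G9ai library and 5 of 7 in each vehicle library. In CD24high they were 6 of 18 in each G9ai library and 12 of 50 with vehicle. In percent the G9ai values minus the vehicle values were 14.4, -54.3 and 9.33 points. Over all genes the same share was 27.6% and 27.9% in the CD24neg G9ai libraries, against 23.5% with vehicle. In CD24low it was 26.6% and 26.4% with G9ai, against 35.9% and 36.5% with vehicle, and in CD24high 32.4% and 32.5%, against 22.3%. All genes thus differed in the same direction in each population, and in CD24high by about as much.

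Merged over populations, the regions of these genes occupied 134 places. Of these, 20 (14.9%) were listed in several populations, against 14.6% of places in all genes. In 13 of the 20 the arm was the same, 8 times G9ai and 5 times vehicle, and in 7 (35%) it was opposite, against 50% over all genes. Opposite arms at 1 place were thus common throughout the lists. Places G9ai-only in all 3 populations numbered 2 of 134 in the members and 18 of 21438 in all genes, and places vehicle-only in all 3 numbered 1 and 39.

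The Srsf4 start site was listed with vehicle in every population. SRSF4 is an SR protein that binds exonic enhancers. Its region at chr4:131873993-131874138, over a start site 530 bp inside the gene's lower-coordinate end, was found in no G9ai library. Its scores were 94 in the CD24neg vehicle library, 121 and 56 in the CD24low vehicle libraries and 103 in the CD24high vehicle library. Their percentiles within the lists were 53.8, 93.2, 21.9 and 52.3, so the region ranked high in CD24low vehicle replicate 2 and low in CD24low vehicle replicate 3. Srsf4 held 1 further region, vehicle-only in CD24neg.

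Celf2 and Rbm47 had places listed with G9ai in every population. CELF2 regulates exons and mRNA stability through GU-rich elements. The Celf2 region at chr2:6872155-6872389 lay before an internal start site, 332 kb from the nearer end of an 857 kb gene. It scored 66 and 89 in the CD24neg, 68 and 53 in the CD24low and 59 and 63 in the CD24high G9ai libraries, and was in no vehicle list. None of the 6 scores passed percentile 53.9 of its list. Rbm47 encodes an RNA-binding protein that acts with the cytidine deaminase APOBEC1 in C-to-U RNA editing. Its region at chr5:66151312-66151658, at least 296 bp inside the 5′ end of the gene, scored 86 and 71 in CD24neg, 71 and 53 in CD24low and 76 and 77 in CD24high G9ai libraries.

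**Figure D4:**
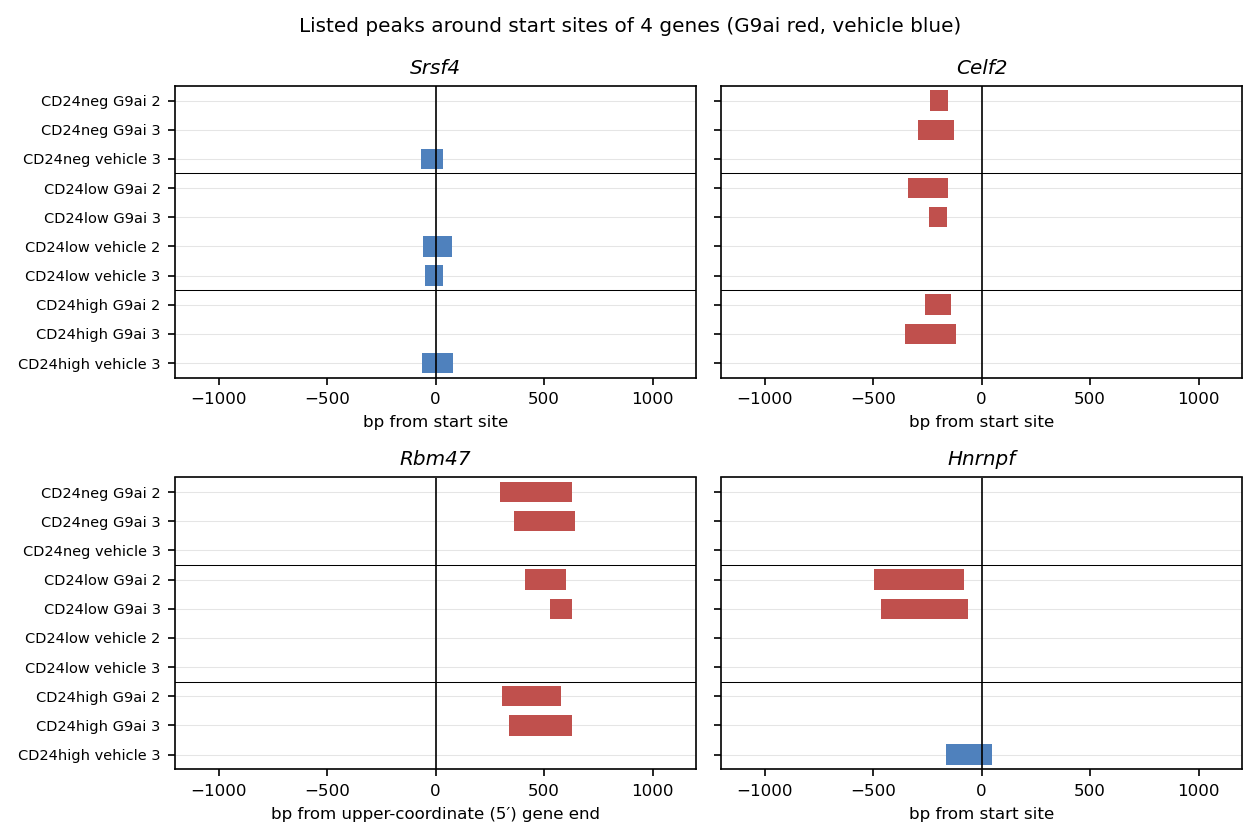
Positions of listed peaks within 1200 bp of a start site of Srsf4, Celf2 and Hnrnpf and of the 5′ gene end of Rbm47 (horizontal axis, bp, transcription to the right), by library (rows, G9ai above vehicle in each population; red G9ai, blue vehicle). Srsf4 shows vehicle peaks in all 3 populations, Celf2 and Rbm47 G9ai peaks in all 3, and Hnrnpf G9ai peaks in CD24low and a vehicle peak in CD24high.

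Over all gene-linked arm-only regions, 31.6% were G9ai-only in CD24neg, 73.1% in CD24low and 18.3% in CD24high. These were 2625 G9ai-only and 5687 vehicle-only regions in CD24neg, 4572 and 1685 in CD24low, and 1879 and 8408 in CD24high. In the members the shares were 34.0%, 82.9% and 25.8%. The splits by family given next are summed over populations, so these shares are not a direct background for them. Whether a family departs from all genes was not tested. Among the 21 Hnrnp genes 13 (8.12 from length) held 29 regions, 11 G9ai-only and 18 vehicle-only. Hnrnpf, whose product binds G-rich RNA, had the highest-scoring G9ai-only region of CD24low among the members. That region, at chr6:117916800-117917230 before the start site shown above, scored 308 and 264 in the CD24low G9ai libraries, a mean percentile of 99.7. The CD24high vehicle library had an overlapping peak (chr6:117917132-117917340) of score 102, at percentile 51.6, and neither CD24high G9ai library did. In CD24neg Hnrnpf held a G9ai-only region 235 bp outside the gene (109 and 117) and a vehicle-only region inside it (86).

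Hnrnpr, whose product takes part in mRNA processing and transport, held the start site region at chr4:136311476-136311628 in CD24neg, with scores of 130 and 173 in the G9ai libraries. A second CD24neg G9ai-only region lay 9073 bp inside the gene. In CD24high the gene had a vehicle-only region instead (score 63). Hnrnph1, a close relative of Hnrnpf, held G9ai-only regions over start site windows in CD24neg (54 and 60) and CD24high (46 and 64), all low in their lists.

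Hnrnpl, Hnrnpa1 and Hnrnpul1 each had 1 place that was listed in opposite arms. HNRNPL binds CA-rich RNA, and its place at chr7:28809003-28809250 was G9ai-only in CD24high (102 and 98) but vehicle-only in CD24low (68 and 109) and CD24neg (110). HNRNPA1 represses exons bound at silencers. Its place at chr15:103239827-103240058, across the gene's lower-coordinate end, was G9ai-only in CD24low (72 and 84) and CD24high (97 and 128) and vehicle-only in CD24neg (105), and it also lay in the window of Cbx5. The Hnrnpul1 place was G9ai-only in CD24high (74 and 87, percentiles 34.5 and 53.3) and vehicle-only in CD24neg (121, percentile 73.2).

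Other Hnrnp genes held vehicle regions alone: Hnrnpa0, Hnrnpdl, Hnrnph3, Hnrnpk, Hnrnpm and Hnrnpu. The highest score was in Hnrnpm, with a score of 262 in the CD24high vehicle library (chr17:33661157-33661470, percentile 97.1). Hnrnpd, which encodes a protein that binds AU-rich elements of unstable mRNAs, had 1 G9ai-only region in CD24low (150 and 76) and 2 vehicle-only regions in CD24neg (161 and 88). Regions of Hnrnpk, Hnrnpdl, Hnrnph3 and the weaker one of Hnrnpm, like the CD24low one of Hnrnpd, also lay in the window of a neighbouring gene.

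Of 11 Srsf genes 5 (3.93 from length) held 13 regions, 4 G9ai-only and 9 vehicle-only, and 6 (Srsf5, Srsf6, Srsf7, Srsf9, Srsf11 and Srsf12) had no listed peak. Srsf10, which encodes an SR-like splicing factor that represses splicing when dephosphorylated, held G9ai-only regions in all 3 populations. The scores were 88 and 67 in CD24neg, 65 and 63 in CD24low and 77 and 62 in CD24high. The first 2 overlapped at one place (chr4:135860072-135860430), while the CD24high region lay 3578 bp away and 95 bp from a vehicle-only region of score 97. Srsf2, which encodes a core SR protein, held a G9ai-only region in CD24low with scores of 200 and 134 (percentile 96.4), and a vehicle-only region over its start site in CD24high (74). Both also lay in the window of Mfsd11. Srsf3 held 2 vehicle-only regions in CD24neg, scoring 194 and 69.

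Ptbp2 and Ptbp3 encode relatives of the polypyrimidine tract binding protein, PTBP2 being best known from neurons, where it represses exons of the mature neuronal programme. A Ptbp2 region at the start site was G9ai-only in CD24neg (59 and 136) and CD24low (42 and 58, percentiles 0.529 and 34.2). Of these peaks only those of replicate 3 reached into the start site window. The CD24high vehicle library had a peak at the same place (65), and the CD24neg vehicle library one 95 bp from the CD24neg region (62). Ptbp3 held vehicle-only regions in CD24neg (96) and CD24high (196 and 83), and none with G9ai. Ptbp1, the widely expressed member, had no listed peak, so 2 of 3 Ptbp genes held a region (1.78 from length).

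Khdrbs1 encodes Sam68, a signal-regulated splicing and RNA export factor. It had the highest-scoring region of all members: 574 and 691 in the CD24neg G9ai libraries, a mean percentile of 99.9, at chr4:129742511-129742978, 900 bp inside the upper-coordinate end of the gene. The CD24neg vehicle list had no peak there. In CD24high the gene held 3 vehicle-only regions (175, 143 and 121) and 1 region found in both arms (137 and 122 with G9ai, 86 with vehicle), the only such region in a member. Khdrbs3, whose product is a tissue-restricted relative, held 1 G9ai-only region in CD24low (83 and 71) and 3 vehicle-only regions (84 in CD24neg, 125 and 74 in CD24high). Khdrbs2 had no listed peak, so 2 of 3 Khdrbs genes held a region (2.16 from length).

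The 3 Rbfox genes, 229 to 1528 kb long, all held a region (2.37 from length). Their regions numbered 17, 5 G9ai-only and 12 vehicle-only, or 7.78 per Mb. Rbfox2, the member of the family known for splicing switches in epithelial and mesenchymal cells, held 11 of them. In CD24low it had 3 G9ai-only regions and no vehicle-only one, in CD24neg no G9ai-only region and 4 vehicle-only ones, and in CD24high 1 G9ai-only (155 and 73) and 3 vehicle-only regions (200, 77 and 65). Its regions thus followed the arm with the longer list in CD24neg and CD24low. Rbfox3, the gene of the neuronal nuclear antigen NeuN, held 1 G9ai-only region and 4 vehicle-only regions, all in CD24high, and Rbfox1 1 vehicle-only region there.

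The 3 Mbnl genes encode muscleblind proteins, which set postnatal splicing patterns and are sequestered by expanded repeats in human myotonic dystrophy. They held 20 regions, 12 G9ai-only and 8 vehicle-only. In CD24low all 3 genes held G9ai-only regions (1.15 from length), 8 in all, and no vehicle-only one, in the population where G9ai-only regions are the majority over all genes. Mbnl2 had 4 of these, the strongest scoring 168 and 123, but vehicle-only regions in CD24neg (119 and 94) and CD24high (96). Beside the first of these CD24neg regions G9ai replicate 2 had a peak 78 bp away (56) and G9ai replicate 3 another 185 bp away (176), so that place is not clearly of 1 arm. Mbnl1 had 3 of them and G9ai-only regions in every population, beside vehicle-only regions in CD24neg (1) and CD24high (4). Mbnl3, on chromosome X, was G9ai-only at 1 place in CD24low (55 and 40) and CD24high (187 and 103) and had no vehicle peak. Its CD24low peaks stood at percentiles 9.95 and 0.910 of their lists. Their mean of 5.43 was the lowest among G9ai-only member regions of CD24low, so the third Mbnl gene there rests on weak peaks.

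Of 6 Celf genes 5 (3.73 from length) held 19 regions, 11 G9ai-only and 8 vehicle-only. Celf2 held 5 of the G9ai-only regions, among them the place described above, and 2 vehicle-only regions in CD24neg (117 and 124). Celf1, which binds GU-rich elements and promotes mRNA decay, was G9ai-only near its 5′ end in CD24neg (62 and 101) and CD24low (96 and 53). Celf4 and Celf5 are best known from neurons. Celf4 had 1 G9ai-only region in CD24high (122 and 113) and 4 vehicle-only regions in CD24neg, 1 of them (73) at the same place. Celf5 had 1 G9ai-only region in CD24neg and 2 in CD24low, where a vehicle-only region lay over its start site (84 and 60). Of 4 Elavl genes 1 (2.75 from length) held a region. Elavl3, one of the neuronal Hu genes, held this only Elavl region, vehicle-only in CD24low (88 and 64). Elavl1, which encodes the widely expressed HuR, had no listed peak.

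Of 38 Rbm genes 12 (18.2 from length) held 45 regions, 22 G9ai-only and 23 vehicle-only. Rbm47 alone held 18, the most of any member, in a 135 kb gene. It had 1 G9ai-only and 3 vehicle-only regions in CD24neg, 4 G9ai-only and 1 vehicle-only in CD24low, and 1 G9ai-only and 8 vehicle-only in CD24high. The highest-ranked in CD24low was G9ai-only, with scores of 135 and 136, and in CD24high vehicle-only, with 187. A second Rbm47 place, chr5:66090130-66090382, was vehicle-only in CD24high (67) and CD24neg (54).

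Rbm20, which encodes the regulator of titin splicing in heart muscle, held 4 G9ai-only regions over the 3 populations and 3 vehicle-only regions in CD24neg and CD24high. Rbm33 likewise held 4 G9ai-only and 3 vehicle-only regions, the strongest vehicle-only in CD24high (218). Rbm18 had the highest-scoring G9ai-only region of CD24high among members (162 and 152, percentile 91.9), at a place also G9ai-only in CD24low (127 and 82). Rbm15b, whose product takes part in the complex that methylates adenosine in mRNA, had a vehicle-only region 41 bp before its start in CD24neg (165, percentile 91.4). Rbm41 was listed at one place as G9ai-only in CD24neg (116 and 54) and vehicle-only in CD24high (61). In CD24neg a vehicle-only region (126), 116 bp away, lay over its start site. Rbm4b had a region outside its end, vehicle-only in CD24low (114 and 130).

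Taking genes as units, 6 members held a G9ai-only region in each of the 3 populations (6.52%, against 1.51% of all genes): Srsf10, Mbnl1, Celf2, Rbm20, Rbm33 and Rbm47. A vehicle-only region in each population was found in 2 (2.17%, against 2.55%), Srsf4 and Rbm47. No expectation from length was computed for these shares. The G9ai-only genes had a median length of 146 kb, against 23.35 kb for all members. For Srsf10, Mbnl1, Rbm20 and Rbm33 the regions of the 3 populations did not lie at 1 common place. G9ai-only regions alone, over all populations, were held by 8 members (8.70%, against 8.36% of all genes), vehicle-only regions alone by 16 (17.4%, against 18.3%) and regions of both arms by 22 (23.9%, against 17.1%). The 22 had a median length of 84.2 kb, against 56.7 kb for all genes with both.

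Start site windows could be read for 77 members. G9ai-only regions overlapped such a window in 4 members in CD24neg (5.19%, against 1.77% of 17492 genes), 4 in CD24low (5.19%, against 2.73%) and 2 in CD24high (2.60%, against 1.35%). Vehicle-only regions did so in 3 (3.90%, against 2.34%), 3 (3.90%, against 1.69%) and 4 (5.19%, against 3.36%). The share was above the background in all 6 sets, in both arms alike, with 2 to 4 genes each. Members with a window had 1.55 windows per gene and all genes 1.22. Mbnl1 and Ptbp2 counted through the peak of G9ai replicate 3 alone, and Rbm33 through that of CD24low vehicle replicate 2 alone (39). The genes on the G9ai side were Celf2, Hnrnpf, Hnrnph1, Hnrnpr, Mbnl1 and Ptbp2, and on the vehicle side Celf5, Hnrnpf, Rbm15b, Rbm33, Rbm41, Rbm47, Srsf2 and Srsf4. Member windows were also richer in GC and CpG than those of all genes, and the part of GC and window number in the counts was not tested.

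The wider splicing machinery did not share one pattern. Of 25 core spliceosome genes 6 held a region in any population, where genes of the same length would give 11.8. Prpf19, a subunit of the complex that activates the spliceosome, was G9ai-only in CD24neg, and U2af2, which recognises the polypyrimidine tract, G9ai-only in CD24low with regions of both arms in CD24high. Sf1, the branch point binding protein, was vehicle-only in CD24neg and CD24high. Of 24 other splicing regulators 16 held a region, against 13.1 from length, with G9ai-only regions in 8, 5 and 6 genes and vehicle-only regions in 6, 2 and 8 in CD24neg, CD24low and CD24high. Length gives 3.36, 5.03 and 2.49 for the G9ai-only counts and 5.91, 2.32 and 7.84 for the vehicle-only counts. Of 7 kinases that phosphorylate SR proteins 4 held a region (3.25 from length): Clk1, Clk3, Srpk1 and Srpk2. Nonsense-mediated decay, which destroys the poison-exon transcripts that SR genes make, had regions in 5 of 8 genes (4.84 from length).

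Peaks in genes of other cell types were counted beside these. Of 5 endothelial marker genes 4 (Erg, Kdr, Pecam1 and Tek) held vehicle-only regions in CD24neg (1.84 from length) and none a G9ai-only one (1.08 from length). In CD24low Pecam1 and Tek held G9ai-only regions (1.56 from length) and no endothelial gene a vehicle-only one (0.701 from length). In CD24high the same pair held vehicle-only regions (2.28 from length) and no endothelial gene a G9ai-only one (0.795 from length). Of 6 immune genes 2 (Ptprc and Spi1) held vehicle-only regions in CD24neg (1.06 from length), and Spi1 a G9ai-only region in CD24low (0.912 from length). Of 5 neural genes, of the tissue where Elavl3, Rbfox3, Celf4 and Celf5 are best known, Syp was vehicle-only and Syt1 G9ai-only in CD24low. The other 3 (Snap25, Nefl and Tubb3) had no region, where length gives 2.54 neural genes with a region in any population. Pecam1 and Ptprc encode CD31 and CD45, against which the cells were gated, and Epcam, Ly6a and Cd24a, the genes of the positive sort markers, held no region. The part of other cells in the vehicle-only regions of CD24neg was not tested.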

How the data were processed

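Libraries were made with a published ATAC-seq protocol, per the labels' protocols. FastQC, Bowtie2 and MACS2 and the build mm10 are named in the submitters' processing notes, without versions. Read shifting, duplicate removal, peak thresholds and the step that made the lists treatment-specific are steps not given in the sources used here. The deposited lists each give peak intervals, a name per library and the authors' peak score. Repeated lines (47 to 472 per list) were dropped. Peaks of a population that shared 1 bp or more were merged into regions, called G9ai-only or vehicle-only as defined above.

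Genes and start site windows came from RefSeq (GRCm38.p6). Length expectations use 10 classes of all protein-coding genes, members included. Python 3.11.15, numpy 2.4.6, pandas 2.3.3 and matplotlib 3.10.9 were used, and the counting was tested on simulated lists. The members and the gene lists were chosen with earlier results of these data known, so the permutation tests planned for values over the members are not reported. Of 25 other splicing regulators 24 matched the table; Qki did not. Some genes of the wider lists are not reported here by name.

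Genes were named by a rule: per population and arm, the 4 members with the most regions and the 4 with the highest mean score, those with regions in all 3 populations, up to 8 with opposite arms in different populations, and Hnrnpf and Khdrbs1. Hnrnpul1, Hnrnph1, Celf1, Celf5 and Rbfox1, single regions mentioned to complete a family and the genes of the wider lists were named after their values were seen. Alternatives were the higher-scoring 50% of peaks, equal list lengths, other windows, 50% of a peak inside, repeated lines kept and replicate numbers as a block. Each library of a group with replicates was also left out, but not the single vehicle libraries of CD24neg and CD24high.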

Additional observations from a re-analysis of the deposited data

Results flagged for a closer look

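In 13 members the arm-only regions were all G9ai-only in 1 population and all vehicle-only in another. Khdrbs1 also had a CD24high region listed in both arms. These differences were not tested, and CD24neg and CD24high each have 1 vehicle library. Hnrnpa1 (3 regions over the populations concerned), Hnrnpl (3), Hnrnpul1 (2) and Celf4 (5) were G9ai-only in CD24high and vehicle-only in CD24neg; Hnrnpa1 was also G9ai-only and Hnrnpl vehicle-only in CD24low. Hnrnpd (3), Rbfox2 (7), Mbnl2 (7) and Khdrbs3 (4) were G9ai-only in CD24low and vehicle-only in CD24neg, and Mbnl2 and Khdrbs3 vehicle-only in CD24high as well. Hnrnpf (2), Srsf2 (2) and Ptbp2 (3) were G9ai-only in CD24low and vehicle-only in CD24high. Hnrnpr (3) and Khdrbs1 (4) were G9ai-only in CD24neg and vehicle-only in CD24high. The share of all genes that meet the same rule was not counted, so the 13 are not shown to be a trait of these genes. By places listed in several populations, 35% had opposite arms in the members, against 50% over all genes.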

How the results depend on the processing

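The G9ai minus vehicle difference in relative density (0.367) stayed above 0 as a mean over populations in every setting run, though the CD24low value turned to -0.687 near gene ends: 0.408 with the higher-scoring 50% of each list, 0.573 with equal list lengths, 0.402 in the gene span alone, 0.407 with 5 kb flanks, 0.358 with repeated lines kept, 0.241 within 1 kb of gene ends and 0.398 without the Celf, Rbfox, Mbnl and Elavl genes. As a share of the list it was 0.173 percentage points. Leaving out 1 library, in groups with replicates, gave 0.365 to 0.368. Replicate lists overlap almost fully, so this range does not measure the spread between mice. The single vehicle libraries of CD24neg and CD24high could not be left out. The replicate block, over 4 pairs of the same population and number, gave 0.399 for the density and -21.2 points for the share of member peaks near gene ends; nothing in the labels pairs these mice. That share differed by -10.2 points in the main setting, -19.9 with the higher-scoring 50% and -17.6 with equal list lengths. With equal list lengths CD24high turned to -3.19. The difference was -8.73 in the gene span alone and -11.8 with 5 kb flanks. It was -11.9 with 50% of a peak inside and -10.6 with repeated lines kept. Leaving out 1 library of a replicated group gave -10.2 each time, with the same limit as above. The number of members with a region depends on how much of each list is used. With the higher-scoring 50% the G9ai-only counts were 5, 9 and 7 in CD24neg, CD24low and CD24high (4.06, 6.55 and 2.93 from length). The vehicle-only count of CD24low was 2 (2.57 from length). With equal list lengths the G9ai-only counts were 6, 7 and 16 in CD24neg, CD24low and CD24high (5.52, 3.91 and 7.44 from length). The vehicle-only counts were 8, 6 and 8 in the same order (7.37, 7.93 and 7.66 from length). The larger arm thus turned in CD24high, where the cut hardly shortened the G9ai lists and mainly shortened the vehicle list. In CD24low the arms drew level, where length gives fewer G9ai-only than vehicle-only members. Within 1 kb of gene ends the G9ai-only counts were 6 in each population (3.75 from length in CD24neg, 6.00 in CD24low and 3.13 in CD24high). The vehicle-only counts were 6 in CD24neg, 5 in CD24low and 12 in CD24high (6.55, 3.11 and 9.11 from length). Leaving out either CD24neg G9ai library gave 15 G9ai-only members there in place of 14 and changed no other count. The causes of these changes were not tested. Depth per library is unknown, and absence from a list is not absence of open chromatin.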
